A study of Mus musculus with 4 samples.

Results

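The 10 genes described here encode the pore-forming alpha-1 subunits of the voltage-gated calcium channels. They were taken as a named family (Cacna1a, Cacna1b, Cacna1c, Cacna1d, Cacna1e, Cacna1f, Cacna1g, Cacna1h, Cacna1i and Cacna1s) from the 21938 protein-coding genes of the GENCODE M21 annotation. The family was not defined by a measured value, though earlier results of these data were known when it was chosen. What was measured is trimethylation of histone H3 at lysine 4 (H3K4me3), a chromatin mark of gene promoters, mapped by chromatin immunoprecipitation and sequencing in hippocampal tissue of male B6CASTF1/J mice, adults of 2 months. B6CASTF1/J animals are F1 hybrids of a C57BL/6J-type parent and a wild-derived castaneus parent, with no treatment and no engineered allele named. The tissue label speaks of a layer of the hippocampus without saying which. There are 4 libraries, 2 made from pool D (the first biological replicate) and 2 from pool C (the second), as technical replicates; each pool combined 7 tissue samples, so the values describe pools and not single animals.

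Each pool gave 1 peak list. The libraries of a pool shared 1 alignment, so the n for any breadth here is 2 pools, and the spread between them can be biological or technical. The replicated list, which holds 27063 peaks, is the main list below, beside 24690 peaks in pool D and 34193 in pool C. Depth per library is unknown because the lists hold no read counts. A gene is called marked when a peak comes within 1 kb of at least 1 of its annotated start sites. Its domain is the run of peaks at that start joined over gaps of up to 1 kb, and its breadth is the length of its broadest domain. Signal is given only as the percentile of a peak within its own list. Because these are bulk pools, a mark carried by fewer cells and a weaker mark in every cell cannot be told apart.

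The alpha-1 subunit forms the channel pore and holds the voltage sensor. When the membrane depolarises the channel opens and calcium enters, which in neurons triggers transmitter release, shapes firing and signals to the nucleus. The family has 3 branches. CaV1 or L-type channels couple activity to contraction and gene regulation (Cacna1c, Cacna1d, Cacna1s and Cacna1f). The CaV2 branch holds the P/Q-type, N-type and R-type channels of nerve terminals and dendrites (Cacna1a, Cacna1b and Cacna1e). CaV3 or T-type channels open at low voltage and support burst firing (Cacna1g, Cacna1h and Cacna1i). Cacna1s is best known from skeletal muscle, where it senses voltage for contraction, and Cacna1f from the retina, where it feeds transmitter release by photoreceptors.

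The sequences before the start sites show the contrast on which much of the following rests: Cacna1c and Cacna1d each have a start cluster that carried the mark and an upstream 5′ start that did not, while Cacna1s and Cacna1f carried it at no annotated start. Each line below gives 200 bases, 5′ to 3′ on the gene's strand, read from the GRCm38 genome, with every CG dinucleotide in capitals. The windows lie as close upstream of the start as is possible without touching an annotated exon. That put the marked Cacna1c window 47 bp and the unmarked one 966 bp upstream of its GENCODE start, the latter next to a predicted RefSeq start, while the other windows adjoin their starts. For Cacna1c they are chr6:119108621-119108820 (minus strand, marked) and chr6:119197385-119197584 (minus strand, unmarked). For Cacna1d they are chr14:30353487-30353686 (minus strand, marked) and chr14:30491456-30491655 (minus strand, unmarked). The Cacna1s window is chr1:136052550-136052749 and the Cacna1f window chrX:7606883-7607082, both on the plus strand.
Cacna1c marked start: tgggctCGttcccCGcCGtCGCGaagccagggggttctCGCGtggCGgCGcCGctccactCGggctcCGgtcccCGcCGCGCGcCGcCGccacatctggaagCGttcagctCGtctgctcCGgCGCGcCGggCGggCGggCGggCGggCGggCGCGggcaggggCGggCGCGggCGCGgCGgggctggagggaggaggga
Cacna1c unmarked 5′ start: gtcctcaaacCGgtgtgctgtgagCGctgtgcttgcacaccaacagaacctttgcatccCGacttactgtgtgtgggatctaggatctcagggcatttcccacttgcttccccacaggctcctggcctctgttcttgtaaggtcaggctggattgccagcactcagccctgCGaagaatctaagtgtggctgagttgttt
Cacna1d marked start: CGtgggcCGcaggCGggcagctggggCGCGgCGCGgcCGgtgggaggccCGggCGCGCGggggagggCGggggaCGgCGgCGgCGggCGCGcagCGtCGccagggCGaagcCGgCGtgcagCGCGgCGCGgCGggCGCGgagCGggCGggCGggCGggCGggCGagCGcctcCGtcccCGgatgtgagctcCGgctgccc
Cacna1d unmarked 5′ start: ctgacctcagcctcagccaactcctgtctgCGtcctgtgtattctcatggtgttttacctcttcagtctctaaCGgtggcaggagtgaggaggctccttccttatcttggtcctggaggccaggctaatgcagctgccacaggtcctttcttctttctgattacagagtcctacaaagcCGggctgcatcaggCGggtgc
Cacna1s 5′ end: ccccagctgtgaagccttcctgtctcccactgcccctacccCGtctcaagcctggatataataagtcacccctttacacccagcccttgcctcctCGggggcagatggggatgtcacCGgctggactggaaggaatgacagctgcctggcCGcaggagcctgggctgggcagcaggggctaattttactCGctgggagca
Cacna1f 5′ end: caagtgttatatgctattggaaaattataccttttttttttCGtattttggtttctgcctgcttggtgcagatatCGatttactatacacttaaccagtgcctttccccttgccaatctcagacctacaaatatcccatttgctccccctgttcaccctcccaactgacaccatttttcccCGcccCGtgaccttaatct
In these 200 bases the marked Cacna1c start had 37 CG dinucleotides and its unmarked start 4. The marked Cacna1d start had 41 and its unmarked start 4. Cacna1s had 5 and Cacna1f had 4. A marked start is one with a peak within 1 kb, and the bases printed need not lie under the peak: in the replicated list 150 of the 200 bases did so for Cacna1c and 28 for Cacna1d, and in pool C 145 and 0, because a short gap between peaks lies at both starts.

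Of the 10 genes, 8 were marked at the promoter, in the replicated list as in each pool. The same call was made for 65.5% of all protein-coding genes in the replicated list, 64.3% in pool D and 66.9% in pool C, so a share of 8 of 10 is not far from the background. Cacna1s and Cacna1f were the unmarked genes in each list. With the annotated 5′ end alone in place of all start sites, 5 of the 10 were marked, and with a window of 2.5 kb all 10, through peaks of neighbouring genes. The share of all genes under these settings is not given here, so neither count can be set beside the 65.5%. All 3 CaV2 genes and all 3 CaV3 genes were marked, and of the 4 CaV1 genes only Cacna1c and Cacna1d. The 8 marked genes had 10 domains in the replicated list, since Cacna1a and Cacna1e have 2 each. All 10 domains shared at least 50% reciprocal overlap with a domain of pool D and with one of pool C. No other gene started inside any of them.

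The marked family members were broader in the median than all marked genes. The family median was 3794 bp in the replicated list, against 2234 bp (quartiles 1626 and 3137 bp) over all 14369 marked genes. In pool D the median was 3733.5 bp against 2034 bp, and in pool C 3960 bp against 2400 bp. A breadth of 5000 bp or more was reached by 3 of the 8, namely Cacna1c, Cacna1e and Cacna1h, and by 6.96% of all marked genes. The same 3 genes reached it in pool C (9.46% of all marked genes). In pool D it was reached by Cacna1c and Cacna1e (4.76% of all marked genes) and not by Cacna1h, at 4963 bp, and with no gap closed Cacna1c was below it, at 3978 bp. Cacna1b, at 2134 bp, was the only one below the median of all marked genes in the replicated list. In pool D, at 2108 bp, it was above the pool's median of 2034 bp. Between the quartiles of the replicated list lay Cacna1b, Cacna1d (2994 bp), Cacna1g (3025 bp) and Cacna1i (3126 bp). Below the upper quartile lay only Cacna1b in pool D (2807 bp), and Cacna1b, Cacna1g and Cacna1i in pool C (3422.75 bp).

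**Figure D1:**
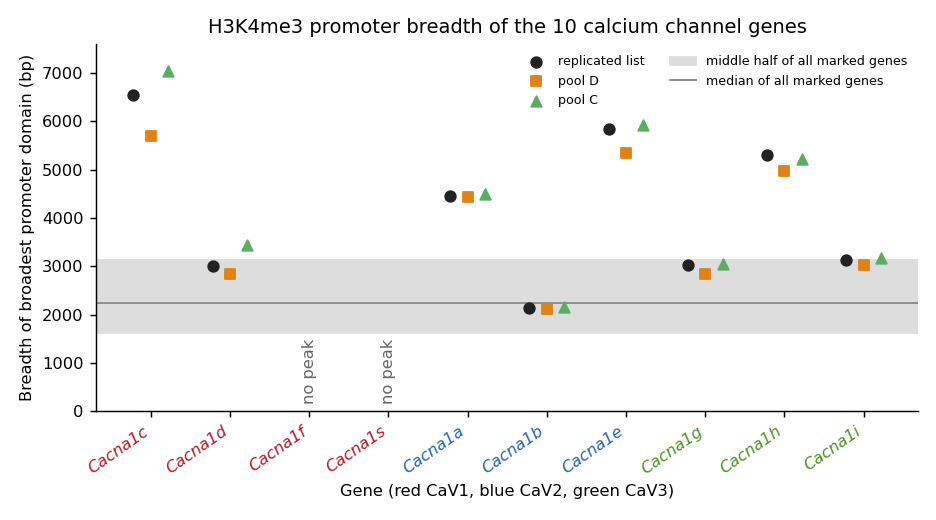
Breadth in bp of the broadest promoter domain of each gene in the replicated list (circles), pool D (squares) and pool C (triangles); the grey band spans the quartiles and the grey line the median of all marked genes in the replicated list. Cacna1c is highest in all 3 lists, Cacna1b lies near the median of 2234 bp, and Cacna1f and Cacna1s have no promoter peak.

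In the CaV1 branch, Cacna1c (CaV1.2, the main L-type channel of brain and heart) had the broadest domain of the family. Pool D gave 5689 bp and pool C 7050 bp, a mean of 6369.5 ± 962 bp (SD, n = 2), and 6548 bp in the replicated list (chr6:119103115-119109662). That placed it at rank 373, broader than 97.4% of all marked genes. The domain ran 1089 bp upstream of its first start site and 5458 bp into the gene. Its strongest peak stood at the 82.2 percentile of signal. Both pools placed Cacna1c first in the family, and of the 8 genes it also had the largest difference between pools, with pool C 1.24 times as wide.

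Cacna1d (CaV1.3, an L-type channel that opens at lower voltages and serves pacemaking) had a domain of 2847 bp in pool D against 3429 bp in pool C (mean 3138 ± 412 bp, SD, n = 2). In the replicated list it spanned 2994 bp at chr14:30351498-30354491, broader than 72.1% of marked genes. The pool C domain of Cacna1d reached 1406 bp upstream and the pool D domain 931 bp. Downstream the pools differed less, at 2022 and 1915 bp.

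The mark of both genes sat at internal start sites. GENCODE lists 14 start sites for Cacna1c, of which 4 were marked, all inside 1 domain. The first of them, at position 119108573, lies 87845 bp inside the annotated gene. At the annotated 5′ end (position 119196418) there was no peak, and the curated RefSeq start there (119196409) was 19997 bp from the nearest peak in the replicated list, 20023 bp in pool D against 19388 bp in pool C. RefSeq has 6 curated transcripts at the marked cluster (position 119108495) and 4 at the 5′ start, and a further 38 predicted transcripts begin at 119197384, also without a peak. Cacna1d has 10 start sites and 3 were marked, the first at 30353486, which is 137969 bp inside the gene. Its upstream curated start at 30491156 was 10303 bp from a peak, 10365 bp in pool D against 9925 bp in pool C.

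The peaks nearest to these unmarked 5′ starts belong to other genes. Inside an intron of Cacna1c, chr6:119174839-119176412 (1574 bp, 80.7 percentile) covers the start of Dcp1b on the opposite strand, and inside an intron of Cacna1d, chr14:30478967-30480853 (1887 bp, 94.5 percentile) covers the start of Dcp1a. Dcp1a and Dcp1b are paralogs that encode activators of messenger RNA decapping. The Dcp1b domain was 1476 bp in pool D against 2217 bp in pool C, and the Dcp1a domain 1767 and 2294 bp. The Dcp1a peak ranked higher in signal than any peak of Cacna1d itself, whose strongest stood at the 63.1 percentile.

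**Figure D2:**
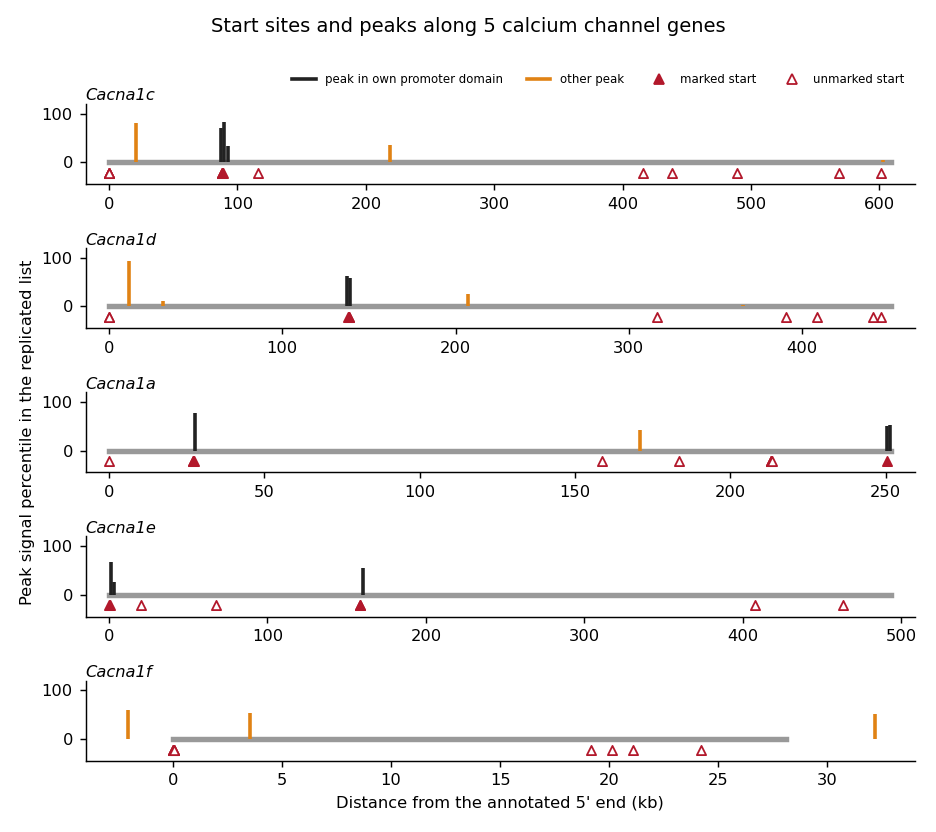
Peaks of the replicated list along Cacna1c, Cacna1d, Cacna1a, Cacna1e and Cacna1f, by distance from the annotated 5′ end in kb; bar height is the signal percentile of a peak, black for peaks in the gene's own promoter domains and orange for others, and triangles are annotated start sites, filled where marked. In Cacna1c and Cacna1d the 5′ start has an open triangle and the filled triangles lie 87845 and 137969 bp into the gene.

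Cacna1s had no peak within 1 kb of any of its 6 start sites. The nearest, chr1:136050744-136051650, measured 907 bp in the replicated list, 906 bp in pool D against 881 bp in pool C. It covers the start of Ascl5, a small transcription factor gene, and ended 1100 bp before the first Cacna1s start (1069 bp in pool D, 1131 bp in pool C), so it lies just outside the window. No peak of any of the 3 lists lay within the Cacna1s gene body. Cacna1f had no peak at any of its 10 start sites. It lies between Ccdc22, whose peak ended 1408 bp before the first Cacna1f start, and Syp, which encodes the synaptic vesicle protein synaptophysin and had a domain of 3354 bp. The Cacna1f gene body did hold a peak of 1007 bp (chrX:7610108-7611114, over exonic sequence, 52.4 percentile), which was 930 bp in pool D against 1071 bp in pool C. Its nearest Cacna1f start was 2964 bp away and the nearest start of another gene 4591 bp away.

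In the CaV2 branch, Cacna1e (CaV2.3, the R-type channel) had a main domain of 5336 bp in pool D against 5924 bp in pool C, a mean of 5630 ± 416 bp (SD, n = 2). The replicated list gave 5846 bp at chr1:154721416-154727261, broader than 95.9% of marked genes. It ran 905 bp upstream and 4940 bp downstream of the start at 154726356, which lies 158145 bp inside the annotated gene. A further domain covered the annotated 5′ end (chr1:154880890-154884962). It was 4073 bp broad, with 2790 bp in pool D against 4865 bp in pool C. The GENCODE starts inside this 5′ domain belong to transcripts with no coding sequence, while 14 predicted RefSeq transcripts begin at 154884522. In signal the 5′ domain stood at the 67.5 percentile and the broader internal domain at the 54.6 percentile, so the order by signal was the reverse of the order by breadth. The same order of signal held in pool D (61.6 against 50.1) and in pool C (76.9 against 76.2).

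Cacna1a (CaV2.1, the P/Q-type channel of fast transmitter release) had a joined breadth that varied little between pools. The domain was 4434 bp in pool D against 4491 bp in pool C, a mean of 4462.5 ± 40.3 bp (SD, n = 2), and 4462 bp in the replicated list at chr8:84414022-84418483, broader than 89.9% of marked genes. The pool D breadth joined peaks of 3669 and 283 bp over a gap of 482 bp, while pool C had 1 peak of 4491 bp. Bases under peaks were 3952 bp in pool D against 4491 bp in pool C. The domain holds all 3 protein-coding start sites of Cacna1a. A second domain of 1852 bp lay at the far end of the gene (chr8:84638389-84640240), around the start of a noncoding transcript at 84638991, which is 250551 bp from the annotated 5′ end. That 3′ domain was 1936 bp in pool D against 1866 bp in pool C. A gene body peak of 1122 bp over an exon (chr8:84558946-84560067) was 11730 bp from the nearest Cacna1a start and was present in both pools.

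Upstream of Cacna1a, RefSeq and GENCODE differ. Of 34 RefSeq transcripts, 30 are predicted models that begin at 84338631 to 84338643, up to 49809 bp upstream of the GENCODE 5′ end. A peak covered those starts in the replicated list (chr8:84338487-84339186, 700 bp) and in pool C (687 bp). In pool D the peak, of 464 bp, did not cover them and lay 80 to 92 bp away. The peak stood at the 11.0 percentile of signal in the replicated list, at 14.7 in pool D and at 38.0 in pool C. The GENCODE 5′ end itself, at 84388440, was 25582 bp from any peak.

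Cacna1b (CaV2.2, the N-type channel of nerve terminals) had the narrowest domain among the marked family members. It was 2108 bp in pool D against 2151 bp in pool C (mean 2129.5 ± 30.4 bp, SD, n = 2) and 2134 bp in the replicated list at chr2:24761634-24763767. Of all marked genes, 46.2% were narrower. Its signal stood at the 76.5 percentile of all peaks in the replicated list, below Cacna1c and Cacna1h (both 82.2) and Cacna1a (77.0). The 3 marked start sites lie within 105 bp of each other at the 5′ end, and the other 5 annotated starts were unmarked.

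In the CaV3 branch, Cacna1h (CaV3.2) stood apart from the other two in breadth. Its domain was 4963 bp in pool D against 5221 bp in pool C, a mean of 5092 ± 182 bp (SD, n = 2). In the replicated list it was 5297 bp at chr17:25429566-25434862, broader than 94.2% of marked genes, with a signal at the 82.2 percentile. Cacna1g (CaV3.1, known from thalamic bursting) had 2844 bp in pool D against 3046 bp in pool C (mean 2945 ± 143 bp, SD, n = 2) and 3025 bp in the replicated list at chr11:94471869-94474893. Cacna1i (CaV3.3) had 3033 bp in pool D against 3171 bp in pool C (mean 3102 ± 97.6 bp, SD, n = 2) and 3126 bp at chr15:80286883-80290008. The intervals of mean ± SD of Cacna1g and Cacna1i overlap, and that of Cacna1d overlaps both. For all 3 CaV3 genes the domain lay at the annotated 5′ end.

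By mean over the pools the order was Cacna1c, Cacna1e, Cacna1h, Cacna1a, Cacna1d, Cacna1i, Cacna1g and Cacna1b. Cacna1c and Cacna1e overlapped within their SDs, and so did Cacna1e and Cacna1h at the edges of theirs. Between Cacna1h and Cacna1a, Cacna1a and Cacna1d, and Cacna1g and Cacna1b the intervals of mean ± SD did not overlap. Each SD rests on 2 pools only. With 2 pools no permutation test can reach a small p, and none was run.

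All 8 marked genes were wider in pool C than in pool D, and so were 96.8% of the 14098 genes marked in both pools. The ratio of pool C to pool D was 1.06 in the median over the family (range 1.01 to 1.24) and 1.18 over all genes (quartiles 1.09 and 1.32). The family ratio was lowest for Cacna1a (1.01, with a gap closed in pool D) and Cacna1b (1.02). Pool C also had more and narrower peaks, 34193 with a median width of 940 bp against 24690 with 1170 bp, and the part of that difference in these ratios was not tested.

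In the replicated list all 10 domains of the family reached farther into the gene than upstream. Short extra domains of Cacna1a, Cacna1c and Cacna1g in pool C, of 462, 199 and 343 bp, reached farther upstream. The smallest downstream reach of a main domain was 1518 bp (Cacna1b) and the largest 5458 bp (Cacna1c), while upstream reach ran from 355 bp (Cacna1i) to 1342 bp (Cacna1a). Over all marked genes the medians were 1443 bp downstream and 626 bp upstream, and 85.3% of genes reached farther downstream. All 8 genes except Cacna1b and Cacna1i were above both medians; those genes were above the downstream median only. The broad domains of Cacna1c, Cacna1e and Cacna1h were long on the downstream side, at 5458, 4940 and 4217 bp.

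**Figure D3:**
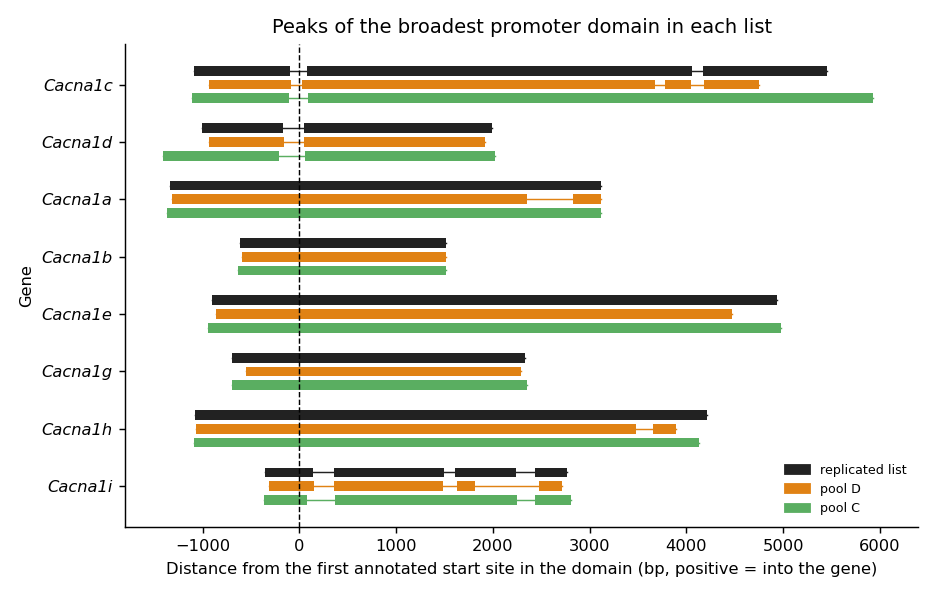
Peaks of the broadest promoter domain of each marked gene in the replicated list (black), pool D (orange) and pool C (green), by distance in bp from the first annotated start site in the domain, positive into the gene; thin lines are gaps between peaks. The domains reach farther to the right of the start than to the left, and Cacna1c, Cacna1d and Cacna1i show a gap near the start in all 3 lists.

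In Cacna1c, Cacna1d and Cacna1i a short stretch without a peak lay over an annotated start site. For Cacna1c it was 174 bp in the replicated list, 115 bp in pool D against 189 bp in pool C, and it held the start at 119108573. For Cacna1d the 3 values were 224, 206 and 275 bp, with the start at 30353486. For Cacna1i they were 222, 204 and 290 bp, with the start at 80287534. Where no gap was closed, the broadest peak was 3978 bp in Cacna1c, 1937 bp in Cacna1d and 1132 bp in Cacna1i. These were 3 of the 8 gaps inside the family's domains in the replicated list, and the other 5 held no start. Of 3214 gaps inside promoter domains of all genes, 454 (14.1%) held one.

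Marked and unmarked start sites of the family differed in CpG content. Of the 84 annotated start sites of the 10 genes, 26 were marked in the replicated list. Within 500 bp on either side, the marked starts had a median of 99 CpG dinucleotides (range 31 to 130) and the 58 unmarked starts a median of 14 (range 3 to 36). The 42 unmarked starts of the 8 marked genes had a median of 15.5. Neighbouring starts share most of their window, so these counts are not independent. The lowest marked values, 31 and 33, were the 2 starts of the Cacna1e 5′ domain. The highest unmarked value, 36, came from a cluster of 4 noncoding Cacna1a starts with 31 to 36 CpG, beside which pool C had a peak of 462 bp.

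**Figure D4:**
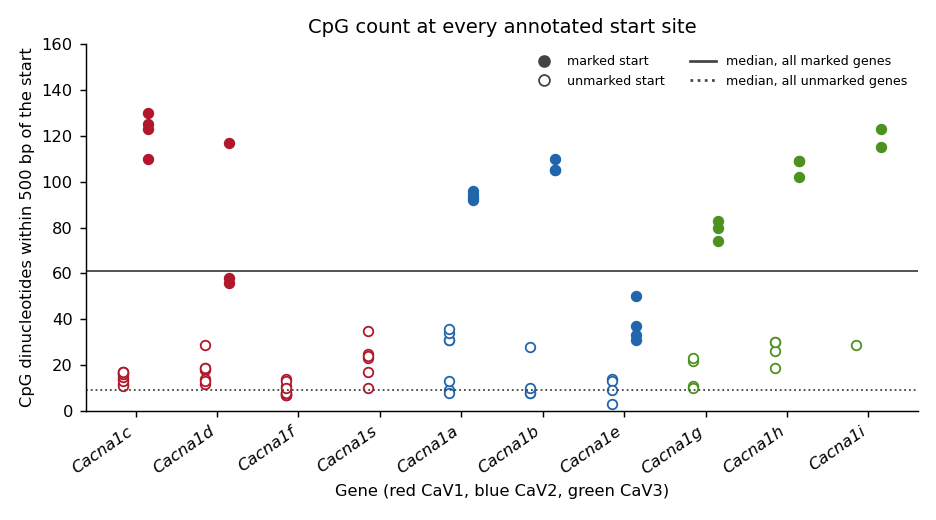
CpG dinucleotides within 500 bp of every annotated start site of the 10 genes, filled where the start was marked in the replicated list and open where it was not; the solid line is the median of all marked genes (61) and the dotted line that of all unmarked genes (9). Filled points run from 31 to 130 and open points from 3 to 36, and the Cacna1e points are the lowest filled ones.

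At the first start inside the main domain, Cacna1c had 123 CpG, more than 96.8% of marked genes, and Cacna1d 117. Cacna1i had 115, Cacna1h 109, Cacna1b 105, Cacna1a 92 and Cacna1g 80. The median over all marked genes was 61. Cacna1e was the exception, with 50 CpG and a GC content of 56.0% at the start of one of the broadest domains in the family, while Cacna1b joined 105 CpG and 68.4% GC to the narrowest domain. Breadth and CpG count thus gave different orders of the 8 genes. Cacna1f had 7 CpG at its 5′ end, fewer than the median of 9 at unmarked genes, and Cacna1s 23, more than 87.0% of unmarked genes.

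Short motifs were searched on both strands from 250 bp before to 50 bp after the same starts. The GC box letters GGGCGG occurred at 8 of the 10 genes, all but Cacna1e and Cacna1i, and at 44.0% of all promoters of that length (61.4% of those of marked genes). The unmarked Cacna1s and Cacna1f were among the 8, and the letters occurred at 11.0% of the promoters of all unmarked genes. The TATA letters TATAAA occurred at none of the 10 and at 12.5% of all promoters. None of the 10 held TGACGTCA (the cyclic AMP response element, 2.51% of all), CGCATGCG (the core letters of the NRF1 motif, 2.66%) or CAGCACC (a part of the RE1 element bound by REST, 6.58%). These are matches of letters in 1 window and say nothing of binding.

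Peaks were also counted away from the promoters. The replicated list had 29 peaks inside the 10 gene bodies. Of these, 18 belonged to the genes' own promoter domains, 2 were the Dcp1a and Dcp1b peaks, and 9 lay more than 1 kb from any GENCODE start. Cacna1d, 452 kb long, had 4 of the 9, and their signal lay at the 26.2 percentile or below. One of those 4, of 216 bp, overlapped no peak of either single pool. Another of them, of 467 bp, and a Cacna1h peak of 256 bp among the 9 overlapped a peak of pool C but none of pool D. By the same rule pool C had 16 such peaks and pool D 7. Among those found in all 3 lists were the exonic peaks of Cacna1a and Cacna1f and an intronic Cacna1c peak of 863 bp (chr6:118977380-118978242), 101765 bp from any Cacna1c start. Pool C also had short peaks at otherwise unmarked starts of Cacna1c (199 bp) and Cacna1g (343 bp), at the 19.1 and 3.17 percentile of its list.

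Most genes of the subunits that assemble with the pore were marked as well. All 4 alpha2delta genes, which encode the extracellular subunits that raise surface expression, were marked, with a median of 4156.5 bp. Cacna2d3 had 5001 bp and Cacna2d1 4495 bp. Another alpha2delta domain in that median, of 3818 bp, also holds the start of a further coding gene. All 4 genes of the cytoplasmic beta subunits were marked, with a median of 4495 bp, led by Cacnb2 (5787 bp) and Cacnb3 (4971 bp). Between the pools Cacnb3 ranged from 2869 bp in pool D to 5754 bp in pool C. Of the 8 gamma subunit genes, several of which encode auxiliary proteins of AMPA receptors, 7 were marked with a median of 2832 bp. Cacng8 reached 12754 bp, broader than 99.8% of marked genes, and Cacng3 5459 bp. Cacng1, the gamma subunit of the skeletal muscle channel that contains Cacna1s, had no promoter peak in any of the 3 lists.

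The sodium channel alpha subunits are the nearest relatives of the calcium channel pores in build. Of 9 genes, 6 were marked, with a median of 2610 bp, led by Scn8a (4828 bp) and Scn3a (3078 bp). Scn4a, the skeletal muscle channel, and Scn10a and Scn11a, channels of sensory neurons, were unmarked. Among 7 other channels with related repeats, 4 were marked with a median of 2453.5 bp. The broadest were Catsper2 (3588 bp) and Tpcn1 (3101 bp), whose domains also hold the starts of Pdia3 and Iqcd, and the sperm channel genes Catsper1, Catsper3 and Catsper4 were unmarked. All 6 intracellular calcium release channels were marked, with a median of 3433.5 bp in the replicated list, against 3898 bp in pool C and 2232.5 bp in pool D. Ryr2 had 6091 bp and Ryr3 4485 bp. Ryr3 measured 2095 bp in pool D against 5184 bp in pool C. Of 14 genes for proteins that bind the channels, 13 were marked with a median of 2725 bp, and the broadest was Calm2 (9600 bp). Stac3, which links Cacna1s to the release channel of skeletal muscle, was unmarked. These counts stand beside the 65.5% of all genes and the median of 2234 bp, and no list was tested against another.

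**Figure D5:**
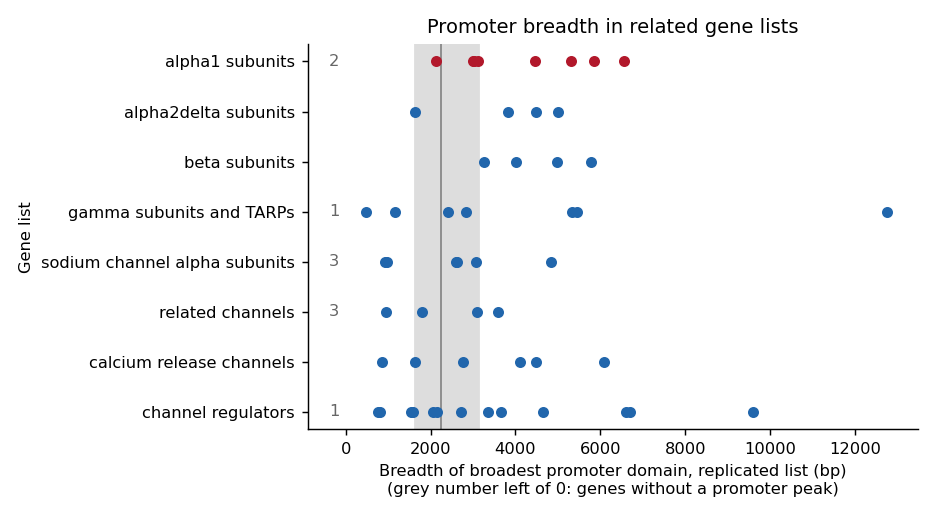
Breadth in bp of the broadest promoter domain in the replicated list for each gene of the alpha-1 family (red) and of 7 related lists (blue); grey numbers at the left count genes without a promoter peak, and the band and line give the quartiles and median of all marked genes. The beta subunits all lie above the upper quartile of 3137 bp, and Cacng8 at 12754 bp is the broadest gene shown.

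Marker genes of the hippocampus and of other tissues were counted beside the tissue label. The promoter call was made for 65.5% of all protein-coding genes in the replicated list, 64.3% in pool D and 66.9% in pool C. A fully marked short list therefore does not by itself identify a tissue, and no list was tested against that share. All 9 markers of hippocampal excitatory neurons were marked in each list, with a median breadth of 5947 bp in the replicated list. All 5 interneuron, 4 astrocyte and 4 oligodendrocyte markers were marked in the replicated list and in pool C; in pool D, 1 interneuron and 1 oligodendrocyte marker were not. Microglial markers differed between the pools, with 0 of 5 marked in pool D and 5 of 5 in pool C. Other lists differed in median breadth of their marked genes. Pool D and pool C gave 1812.5 and 3875 bp for astrocytes and 2425 and 4599.5 bp for oligodendrocytes. Interneuron markers had 1540 and 3133 bp, excitatory neuron markers 5875 and 6234 bp, and all marked genes 2034 and 2400 bp. The part of any of these lists in the wider domains of pool C was not tested. Of 6 heart markers, 0 were marked in the replicated list and in pool D, and 1 in pool C. For the tissues of the unmarked channels, 4 of 10 skeletal muscle and 4 of 12 retina markers were marked. Actn3, Ckm and Mylpf shared their domains with starts of Zdhhc24, Klc3 and Tbc1d10b, and Ryr1 had 858 bp of its own. The marked retina genes were Nrl (1804 bp), Gnat1 (916 bp), Grm6 (784 bp) and Vsx1 (689 bp). All 4 thalamic markers, 3 of 6 cerebellar markers and 2 of 4 choroid plexus markers were also marked in the replicated list, and in pool D 3 of the 4 thalamic markers.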

How the data were processed

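H3K4me3 peak lists were analysed for 4 libraries of hippocampal tissue, in 2 pools. Per the file headers and labels, the authors aligned to mm10 and deposited 1 narrowPeak list per pool, 1 for both pools together and 1 replicated list. The peak caller, its version and the treatment of reads from the non-reference parent are not stated in the sources used here. The deposited signal is an enrichment value of the authors' caller, used only for ranks within a list. The deposited −log10 q values were used for a stricter list (at least 5), and the −log10 p values were not used. Read depth is unknown, so no counting interval is given.

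Peaks were matched, by at least 1 bp, to windows of 1 kb on either side of every GENCODE M21 start site, and peaks no more than 1 kb apart were joined into domains (Python 3.11.15, numpy 2.4.6, matplotlib 3.10.9). The procedure was tested on simulated data. RefSeq GRCm38.p6 supplied sequence and further start sites, and no peak ran past its chromosome ends. All 10 genes are named, with, from each related list, the 2 broadest genes and up to 4 unmarked ones (1 such gene is not reported here); of the marker lists, only marked muscle and retina genes are named. Neighbouring genes (Dcp1a, Dcp1b, Ascl5, Ccdc22 and Syp) were named after their peaks were seen. The genes and lists were chosen with earlier results of these data known. Breadths over pools are means ± SD. There is no second condition, so no test between groups was made. Alternatives covered the list, the q threshold, the window, the start sites used, the gap closed and the overlap.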

Additional observations from a re-analysis of the deposited data

How the results depend on the processing

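The count of 8 marked genes was the same in the list of either pool, in the list called on both pools together, with −log10 q of at least 5, with a window of 500 bp, with at least 200 bp of peak in the window and with protein-coding starts alone. It was 10 with a window of 2.5 kb, which takes in the Ascl5 and Ccdc22 peaks next to Cacna1s and Cacna1f, and 5 when only the annotated 5′ end of each gene was used. No share of all genes is given for these settings, so these counts have no background. The median breadth of 3794 bp moved by more than its SD over the pools (160 bp) to 3960 bp in pool C alone, 3075.5 bp with the 2.5 kb window, 3126 bp with the 5′ end only and 3501.5 bp with no gap closed. The 2.5 kb median is over 10 genes, neighbours' peaks included, and the 5′ end median over 5. Medians of all marked genes are not given for the changed window, start sites or gap, so these values cannot be set beside 2234 bp. All 10 domains were found in both pools by 1 bp or by 50% reciprocal overlap. With the 5′ end only, Cacna1a, Cacna1c and Cacna1d had no domain there. Of the 77 single-gene alternatives that did give a breadth for a marked gene, 68 moved by less than the spread between pools. With no gap closed, Cacna1c fell to 3978 bp, Cacna1d to 1937 bp and Cacna1i to 1132 bp, each a move of over 1.5 times. No paired analysis was possible because the libraries of a pool share 1 peak list, so that the technical replicate numbers have no list of their own. Leaving out a library was not possible for the same reason, and without read counts the depth behind a missing peak is unknown.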
